A study of Homo sapiens with 9 samples.

Results

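Cytosolic heat shock genes were described in human Ewing sarcoma cells that had spread in mice. The genes were chosen by symbol as 10 rows of a count table of 34922 human gene rows, and all 10 were found and passed the filter on low counts. They comprise 7 genes whose transcription is induced by heat (HSPA1A, HSPA1B, HSP90AA1, HSPB1, HSPH1, DNAJB1 and BAG3), 2 that are made constitutively (HSPA8 and HSP90AB1), and HSF1, the factor that drives the inducible genes. RNA came from TC71, an established Ewing sarcoma line carried by every group. According to the design text, each graft was 100 cells with Matrigel in the flank of an NSG mouse, a strain without functional lymphocytes, with flow cytometry used to recover the tumour cells once the tumour had reached 1.5 cm. Bone marrow metastases gave 4 libraries, lung metastases 4 and the primary tumour 1. No treatment, age or sex is given in the labels, all libraries come from 1 line, and the labels do not say which libraries share a mouse, so a p-value here reflects only how far these samples vary, and that variation may be technical.

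Heat shock proteins are chaperones that bind unfolded protein. HSF1 is kept inactive by chaperones in unstressed cells. When unfolded protein draws the chaperones away, HSF1 forms trimers and binds heat shock elements, which are alternating repeats of GAA and TTC, upstream of the chaperone genes. HSP70 proteins work in cycles set by J-domain proteins such as DNAJB1 and by nucleotide exchange factors such as HSPH1 and BAG3, and pass clients to HSP90. Both HSP70 and HSP90 have an inducible and a constitutive cytosolic form, so the balance between forms within a library can be read without regard to sequencing depth. Tumour cells are known to keep many of these genes active, and the inducible ones are also known to respond to tissue dissociation and sorting.

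The elements that HSF1 can bind were looked for in the 250 bases before each RefSeq start site (GRCh38.p14), and the matched stretches are printed because they set the inducible genes beside their constitutive partners. Of the 10 genes, 9 had a promoter in the RefSeq table, with 14 start sites, and HSF1 had none. An element of 2 units was GAA and TTC, or TTC and GAA, with any 2 bases between them, each of which is its own reverse complement. An element of 3 units was TTC, GAA and TTC, or GAA, TTC and GAA, again with any 2 bases between neighbours, and these are reverse complements of each other. Both strands were thereby searched, and each element of 3 units also holds elements of 2 units. Capitals mark the matches, and each stretch is given 5′ to 3′ on the gene's strand.
HSPA1A (chr6:31815400-31815459, + strand): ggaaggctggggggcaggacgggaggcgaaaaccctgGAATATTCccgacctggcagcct
HSPA1B (chr6:31827596-31827655, + strand): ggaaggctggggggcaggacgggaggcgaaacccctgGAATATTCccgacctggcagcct
HSPA8 (chr11:123062178-123062207, - strand): agcaggggcgggccccTTCTGGAAGGTTCt
HSP90AA1 (chr14:102087104-102087133, - strand): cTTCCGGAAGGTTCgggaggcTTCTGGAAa
HSP90AB1 (chr6:44247758-44247858, + strand): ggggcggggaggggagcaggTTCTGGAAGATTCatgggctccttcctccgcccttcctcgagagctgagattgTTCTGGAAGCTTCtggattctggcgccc
DNAJB1 (chr19:14518422-14518494, - strand): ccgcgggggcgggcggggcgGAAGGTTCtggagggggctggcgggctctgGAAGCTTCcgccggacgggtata
HSPB1 (chr7:76302454-76302513, + strand): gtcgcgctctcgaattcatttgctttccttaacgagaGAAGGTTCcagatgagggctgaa

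An element of 2 units lay before 7 of the 14 start sites, each of a different gene, and one of 3 units before 3 of the 14, those of HSPA8, HSP90AA1 and HSP90AB1. Over all 35116 promoters of the RefSeq table, the same 250 bases held an element of 2 units in 11.6% and of 3 units in 0.441%. HSPA8 held 2 elements of 3 units, of which the one nearer the start is shown. The windows of HSPH1 and BAG3 held no match. Elements of 3 units were thus found for both HSP90 forms and for the constitutive HSP70, while the inducible HSPA1A and HSPA1B held a single element of 2 units each, in promoters that are 93.6% identical. The HSP90AB1 and DNAJB1 stretches lie in introns of GENCODE release 29 and those of HSPA8 and HSP90AA1 in exons of some of its transcripts, while the other 3 stretches lie just upstream of the gene. A match describes the sequence and does not show binding. Units with a changed base or another spacing were not searched. The number of matches, or their absence, therefore does not rank the genes by how well HSF1 can bind.

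Library totals ran from 11550045 to 17911515 estimated counts, with at least 14159456 in every bone marrow library and at most 13219016 in every lung library. The 10 genes took 0.264% to 0.84% of a library's counts. Tumour identity was checked on 8 Ewing sarcoma markers, whose summed level was 1528 to 1840.4 CPM (counts scaled to library size, the unit of all levels here) in bone marrow, 1748 to 2148 CPM in lung, the primary library reading 2234 CPM. The summed markers of other cell types overlapped between sites. These are human gene rows, whereas host cells are mouse cells, so the values do not measure how much host tissue a library holds. Summed leukocyte markers lay at 3.72 to 14.9 CPM in bone marrow and 2.47 to 44.3 CPM in lung. CD68 was apart between sites, at 0 to 0.444 CPM in bone marrow and 0.993 to 20.9 CPM in lung. LYZ was apart the other way, at 0.587 to 1.53 CPM in bone marrow and 0 to 0.563 CPM in lung. MPO was at 0 to 0.695 CPM in bone marrow and at 0 in all 4 lung libraries. SFTPC, which defines lung alveolar cells, was at 0 in every bone marrow library and at most 0.745 CPM in lung. Summed endothelial and stromal markers lay at 89.4 to 245 and 90.1 to 306 CPM. Reads assigned to mouse were 7.522 ± 0.191% in bone marrow, 7.355 ± 0.496% in lung and 7.45% in the primary library. Reads assigned to human were 78.6 ± 0.688% in bone marrow and 75.3 ± 1.97% in lung, and mitochondrial ribosomal RNA took 0.158 ± 0.0559% and 0.432 ± 0.0657% of reads. The part of these differences in the results below was not tested.

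Before the single genes, their levels can be ordered per length, as CPM per kilobase of the longest coding transcript in GENCODE's basic set. In lung, HSP90AA1 stood first at 978 ± 232, followed by HSPA8 at 719 ± 102, HSP90AB1 at 436 ± 78.6, HSPB1 at 284 ± 44.2 and DNAJB1 at 118 ± 59.2 CPM per kilobase (SD, n = 4). HSPA1B (29.6 ± 5.59), HSPA1A (27.1 ± 14.6) and HSPH1 (24.5 ± 10.2) followed within their spread of each other. In bone marrow, HSP90AA1 (644 ± 326), HSPA8 (567 ± 171) and HSP90AB1 (559 ± 253) did not differ beyond their spread. BAG3 and HSF1 stood last in both sites, at 1.73 ± 0.42 and 1.57 ± 1.78 CPM per kilobase in bone marrow and 2.48 ± 2.15 and 0.419 ± 0.528 in lung. The chaperones that bind clients were therefore far more abundant than their regulator at the RNA level, in every group.

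**Figure D1:**
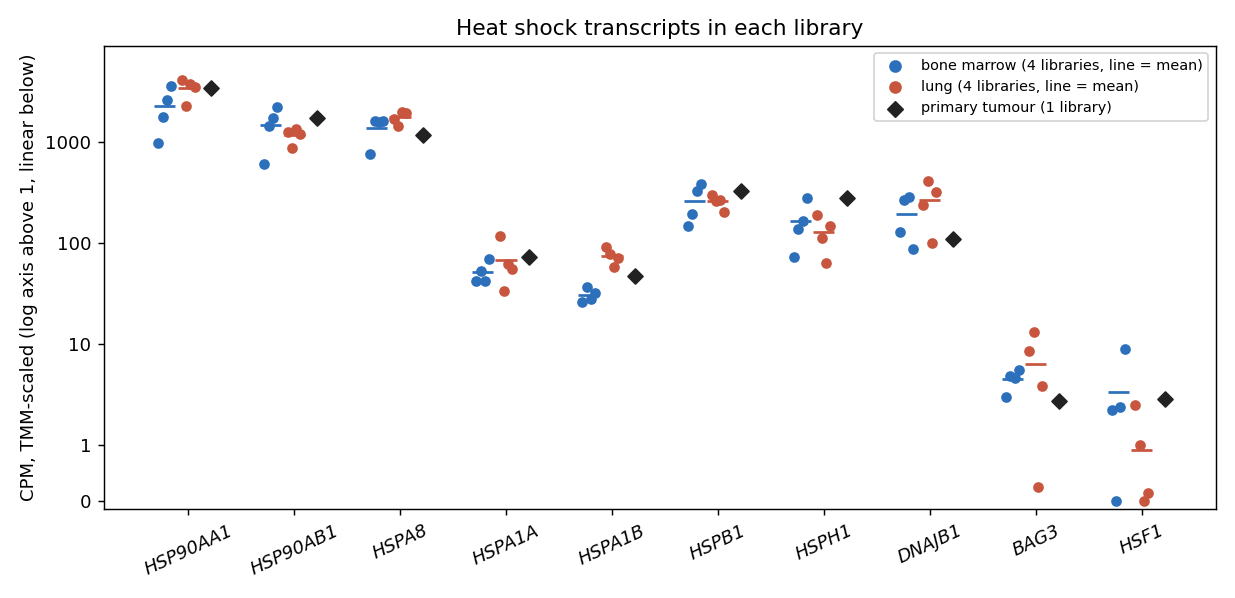
TMM-scaled CPM of the 10 heat shock genes (vertical axis, logarithmic above 1 CPM and linear below) in 4 bone marrow libraries, 4 lung libraries and the primary library, with lines at the site means. HSPA1B is the only 1 of the 10 whose sites do not overlap, at 26.2 to 36.3 CPM in bone marrow and 58.1 to 92.0 CPM in lung.

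The balance of the HSP90 forms separated the sites, while the levels of each form overlapped. HSP90AA1 and HSP90AB1 encode the alpha and beta forms of the same chaperone, which matures kinases and steroid receptors. Within a library, the CPM of inducible HSP90AA1 was 1.62, 1.25, 1.53 and 1.64 times that of constitutive HSP90AB1 in bone marrow replicates 1 to 4. The same ratio was 3.28, 2.62, 2.82 and 2.96 in lung replicates 1 to 4, and 2.00 in the primary library. Every lung library thus lay above every bone marrow library, and the primary library lay between the sites. On the log2 scale, with a pseudocount of 1 CPM, the ratio averaged 0.585 ± 0.18 in bone marrow and 1.54 ± 0.135 in lung (SD, n = 4 each). The difference of -0.955, a 1.94-fold shift towards HSP90AA1 in lung, gave p = 0.0286 by exact permutation (two-sided), which is the lowest value possible with 4 against 4, and 0.0571 after Benjamini-Hochberg adjustment over the 2 ratios tested, which is above 0.05. Without any 1 library it stayed between -1.0 and -0.868. As background, among 4353 other genes averaging 5 or more on the log2 CPM scale, the ratio to HSP90AB1 was higher in every lung library than in every bone marrow library for 2.5%. That share counts 1 direction only, whereas the permutation p is two-sided. Reads of both genes can also come from their processed copies: 26.0% of the 31-base words of HSP90AA1 occur in HSP90AA2P and 31.1% of those of HSP90AB1 in HSP90AB3P. Counted over all other genes, the shared words were 36.1% for HSP90AA1 and 40.1% for HSP90AB1, so part of each estimated count is uncertain.

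**Figure D2:**
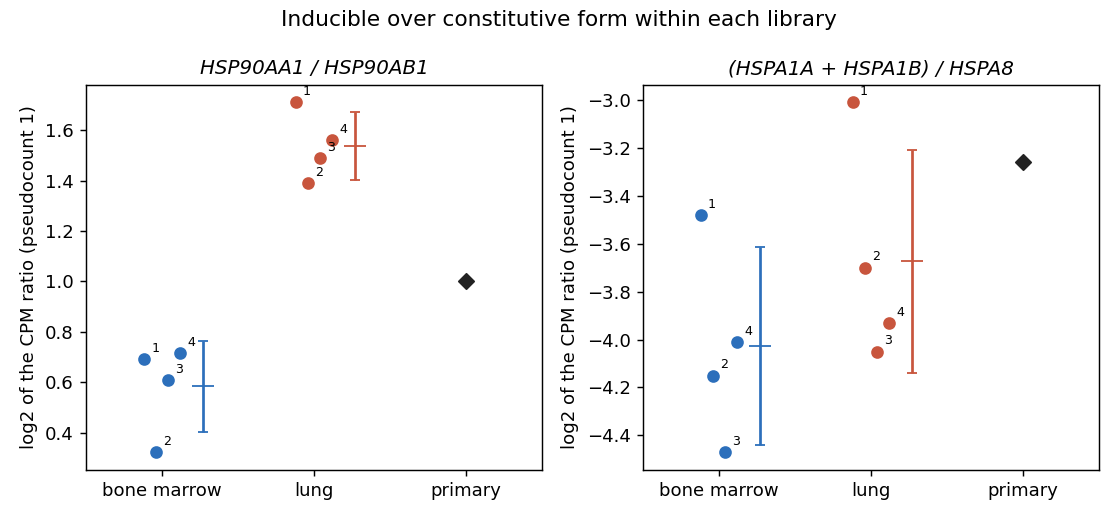
Log2 ratio of the inducible to the constitutive form in each library (points numbered by replicate, with the site mean and SD beside them). For HSP90 the bone marrow libraries lie at 0.323 to 0.715 and the lung libraries at 1.39 to 1.71, with the primary library at 1.00, while the HSP70 ratios of the sites overlap.

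Neither HSP90 gene passed the test alone. HSP90AA1 (chromosome 14, 102080738 to 102139699, hg38) was at 978, 1792, 2629 and 3646 CPM in bone marrow replicates 1 to 4 and at 4148, 2271, 3785 and 3531 CPM in lung replicates 1 to 4, against 3442 CPM in the primary library. The sites overlapped, and bone marrow replicate 1 was the lowest of all 9 libraries. The log2 fold change, positive where bone marrow is higher, was -0.60 ± 0.37 (SE), with an edgeR quasi-likelihood adjusted p of 0.570 over 17073 genes. Without bone marrow replicate 1 it was nearer 0, at -0.33, and without bone marrow replicate 4 it was -0.93. HSP90AB1 (chromosome 6, 44246166 to 44253888) was at 605, 1432, 1723 and 2220.1 CPM in bone marrow and 1266, 866, 1344 and 1194 CPM in lung, with 1718 CPM in the primary library. Here bone marrow held both the lowest and the highest library. Its log2 fold change was 0.36 ± 0.35, with an edgeR adjusted p of 0.753. It was 0.64 without bone marrow replicate 1 and 0.10 without bone marrow replicate 4. The sum of both forms overlapped between sites, at 3756 ± 1809 CPM (bone marrow) and 4601 ± 1016 CPM (lung).

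For inducible HSP70 the sites stood apart in HSPA1B. In bulk RNA of sorted cells, fewer cells that express a gene and less RNA per cell cannot be told apart. HSPA1A (chromosome 6, 31815464 to 31817946) and HSPA1B (chromosome 6, 31827735 to 31830255) are neighbouring genes of 1 exon that encode nearly the same stress-induced HSP70. HSPA1B was at 26.2, 36.3, 28.0 and 31.6 CPM in bone marrow replicates 1 to 4 and at 92.0, 77.5, 58.1 and 71.3 CPM in lung replicates 1 to 4. The highest bone marrow library lay below the lowest lung library, and the primary library, at 47.4 CPM, lay between the sites. The mean was 2.45-fold higher in lung (74.7 ± 14.1 against 30.5 ± 4.44 CPM, SD, n = 4 each), a log2 fold change of -1.29 ± 0.28 (SE). It did not pass in edgeR, with an adjusted p of 0.307 and 0.276 to 0.566 with single libraries left out, or in limma voom (adjusted p 0.168), whereas DESeq2 called it (adjusted p 9.68e-05). By its unadjusted p of 0.00137 it ranked 76 of 17073 genes.

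Taken by class, 2 of the 7 inducible genes were higher in bone marrow and 5 lower, with a median log2 fold change of -0.48, and of the 2 constitutive genes 1 was higher and 1 lower, with a median of 0.0067. Over all tested genes 49.9% were higher in bone marrow. The difference between the classes was not tested, and within the inducible class HSPB1 and HSPH1 were the members with higher bone marrow values.

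That 1 call among 10 genes has to be read against the whole table. In edgeR 0 of the 10 passed, where 0.00586% of all genes did, and 1 of the 10, HSPA1B, had an unadjusted p below 0.05, where 10.2% of all genes did and 3.88% did with a higher level in lung. DESeq2 called 1 of the 10 and 3.37% of the genes it gave an adjusted p (1.21% as higher in lung), limma voom 0 of the 10 and 0.0351%. The sites did not overlap for 1 of the 10 and for 5.87% of all genes, 3.06% being higher in lung. The edgeR test had little reach for small changes among 16251 genes simulated with the real means and spread. It called 2% of 50 genes raised 2-fold in bone marrow and 8% of 50 lowered 4-fold there. For genes raised 8-fold it called 44%, and for genes lowered 16-fold 36%. Each size was simulated in 1 direction only, and the changed genes were drawn from many expression levels. These rates therefore do not give the reach for the 10 genes themselves.

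HSPA1A, in contrast to its neighbour, overlapped between sites. It was at 41.6, 53.2, 42.0 and 69.0 CPM in bone marrow replicates 1 to 4, at 118, 33.3, 62.3 and 54.8 CPM in lung replicates 1 to 4, and at 72.9 CPM in the primary library. Lung replicate 1 was the highest and lung replicate 2 the lowest of the 9, so the sites overlapped. The log2 fold change of -0.38 ± 0.41 (edgeR adjusted p 0.781) turned to 0.06 without lung replicate 1 and was -0.61 without lung replicate 2. The ratio of HSPA1A to HSPA1B was 1.47 to 2.18 in bone marrow, 0.43 to 1.28 in lung and 1.54 in the primary library. How well the 2 genes can be told apart is limited: 74.3% of the words of 31 bases in the HSPA1A transcript also occur in HSPA1B, so the estimated counts split shared reads between them and the single-gene values are uncertain.

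The summed level of the pair does not depend on that split. HSPA1A plus HSPA1B was at 67.8, 89.4, 70.0 and 101 CPM in bone marrow replicates 1 to 4, at 210.3, 111, 120.4 and 126 CPM in lung replicates 1 to 4, and at 120.3 CPM in the primary library. The sites did not overlap, though the nearest libraries, bone marrow replicate 4 and lung replicate 2, were close. Fitted as 1 row, the sum had a log2 fold change of -0.79 ± 0.28 (SE), with an edgeR adjusted p of 0.448, a limma voom adjusted p of 0.379 and a DESeq2 adjusted p of 0.160, so no tool called it. Without lung replicate 1, the highest library, the log2 fold change was -0.52, with an edgeR adjusted p of 0.524.

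**Figure D3:**
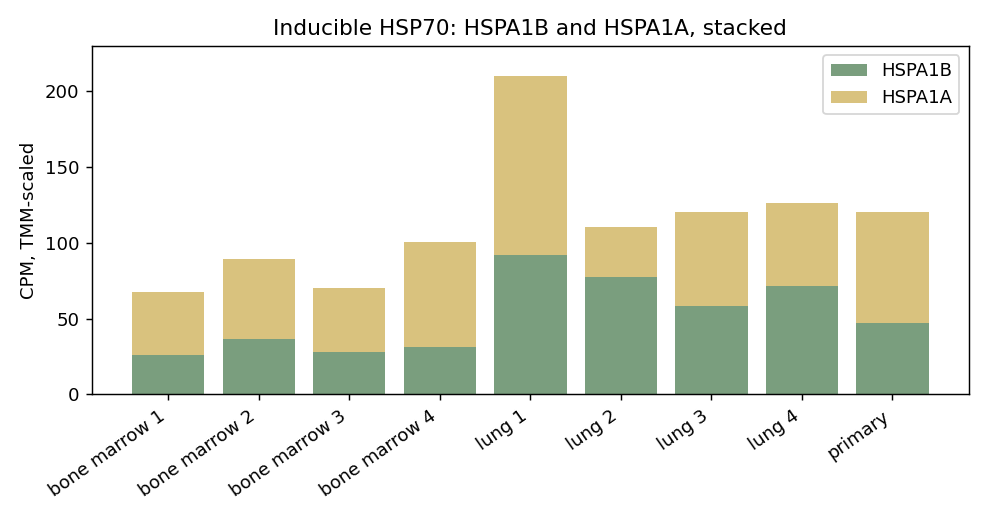
Stacked TMM-scaled CPM of HSPA1B and HSPA1A in each of the 9 libraries, with the height of a bar giving their sum. The 4 bone marrow bars reach 67.8 to 101 CPM and the 4 lung bars 111 to 210.3 CPM, and the HSPA1B segment is at most 36.3 CPM in bone marrow and at least 58.1 CPM in lung.

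Constitutive HSP70 is HSPA8, which folds new proteins and uncoats clathrin vesicles (chromosome 11, 123057489 to 123063230). It was at 767, 1609, 1576 and 1633 CPM in bone marrow replicates 1 to 4 and at 1699.9, 1452, 2006 and 1931 CPM in lung replicates 1 to 4, with 1164 CPM in the primary library. Apart from bone marrow replicate 1, the bone marrow libraries lay within 1576 to 1633 CPM, inside the lung range. The log2 fold change was -0.34 ± 0.25 (edgeR adjusted p 0.640) and -0.125 without bone marrow replicate 1. Unlike the HSP90 ratio, the log2 ratio of HSPA1A plus HSPA1B to HSPA8 overlapped between sites, at -4.03 ± 0.414 in bone marrow and -3.67 ± 0.464 in lung (difference -0.358, exact two-sided permutation p = 0.343, adjusted p = 0.343 over the 2 ratios). With HSPA1A alone in place of the sum the difference was 0.133. Other genes hold 41.1% of the 31-base words of HSPA8, so its estimated count is also partly uncertain. Whether the HSP70 and HSP90 ratios differ from each other in their response to the site was not tested.

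The HSP70 co-chaperones DNAJB1, HSPH1 and BAG3 varied as much within a site as between sites. DNAJB1, a J-domain protein that delivers clients to HSP70 (chromosome 19, 14514770 to 14529770), was at 128, 269, 286 and 86.7 CPM in bone marrow replicates 1 to 4 and at 236, 413, 99.3 and 322 CPM in lung replicates 1 to 4, with 109.9 CPM in the primary library. Both sites held libraries near 100 CPM and libraries near 300 CPM. Its log2 fold change was -0.48 ± 0.50 (edgeR adjusted p 0.775), and with single libraries left out it ran from -0.75 without lung replicate 3 to -0.19 without lung replicate 2. HSPH1, the HSP110 nucleotide exchange factor (chromosome 13, 31134974 to 31162388), was at 72.4, 138, 166 and 279 CPM in bone marrow and 189, 111, 63.6 and 146 CPM in lung. The primary library, at 282 CPM, was above all 8 metastasis libraries, by a narrow margin over bone marrow replicate 4. Bone marrow against lung gave 0.36 ± 0.45 (edgeR adjusted p 0.822) and was -0.02 without bone marrow replicate 4 and 0.63 without lung replicate 1.

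BAG3, which links HSP70 to selective autophagy (chromosome 10, 119651370 to 119677819), was low, at 2.96, 4.76, 4.59 and 5.54 CPM in bone marrow replicates 1 to 4, at 8.40, 13.0, 0.248 and 3.85 CPM in lung replicates 1 to 4 and at 2.69 CPM in the primary library. Lung held both the highest and the lowest library, the latter with an estimated count of 3. The log2 fold change was -0.51 ± 0.92 (edgeR adjusted p 0.891), and was 0.10 without lung replicate 2 and -0.91 without lung replicate 3. HSPB1, a small heat shock protein that holds unfolded clients for HSP70 (chromosome 7, 76302544 to 76304295), was at 146, 194, 331 and 383 CPM in bone marrow, at 301, 261, 266 and 204 CPM in lung and at 331 CPM in the primary library. Its site means were alike, at 263 ± 112 and 258 ± 40.2 CPM, and the log2 fold change was 0.03 ± 0.32 (edgeR adjusted p 0.986), which turned negative without bone marrow replicate 3 or 4 or lung replicate 4. Of the 31-base words of HSPB1, 19.1% occur in other genes.

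HSF1 itself was low, with 2 libraries at 0. Its level was 2.22, 0, 2.36 and 8.86 CPM in bone marrow replicates 1 to 4, 2.46, 0.985, 0 and 0.145 CPM in lung replicates 1 to 4, and 2.84 CPM in the primary library. The highest library, bone marrow replicate 4, held 136 estimated counts, and a count of 0 allows up to 0.183 CPM in bone marrow replicate 2 and 0.248 CPM in lung replicate 3 (3 counts, for counting error only, since PCR reads are not independent molecules). The log2 fold change of 1.90 ± 1.63 did not pass (edgeR adjusted p 0.710), and it was 0.76 without bone marrow replicate 4 and 3.13 without lung replicate 1. HSF1 is regulated mainly at the protein level, which RNA does not show.

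**Figure D4:**
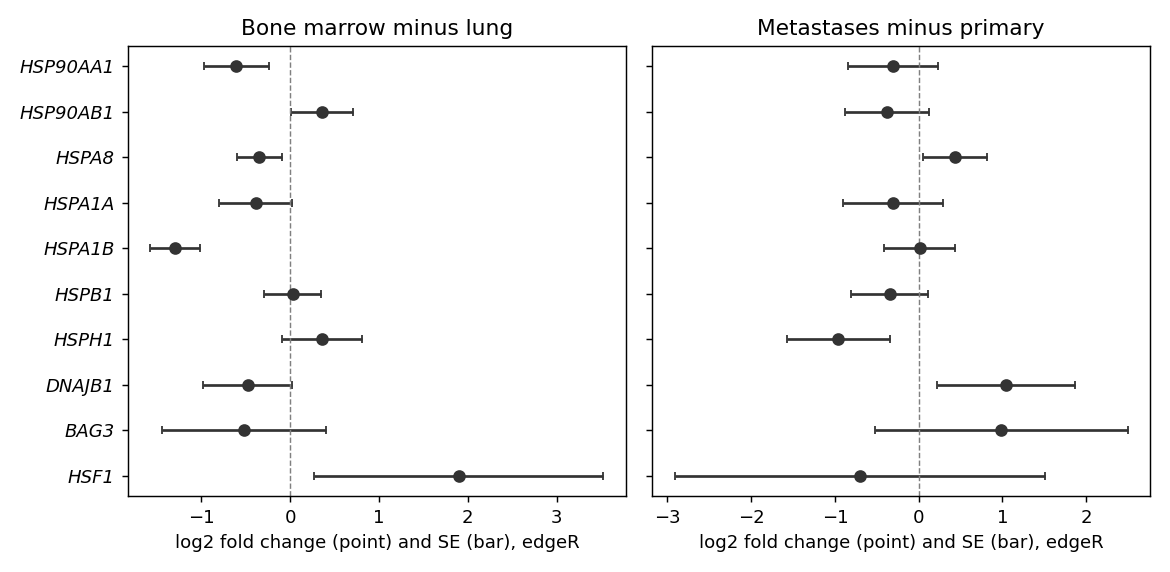
edgeR log2 fold changes (points) with their standard errors (bars) for bone marrow minus lung and for metastases minus primary. HSPA1B, at -1.29, stands farthest below 0 relative to its error in the first comparison, and in the second every gene lies within 2 standard errors of 0.

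Several of the genes shifted together in single libraries. Bone marrow replicate 1 was the lowest bone marrow library for 8 of the 10 genes, the exceptions being DNAJB1 and HSF1, and bone marrow replicate 4 the highest for 8, the exceptions being DNAJB1 and HSPA1B. Of 2619 well-expressed genes, with a mean log2(CPM + 1) of at least 6, replicate 1 was the lowest bone marrow library for 48.3% and replicate 4 the highest for 19.2%. As deviations from the site mean of log2(CPM + 1), bone marrow replicate 1 was at -1.05 for HSP90AA1, -1.16 for HSP90AB1, -1.01 for HSPH1, -0.80 for HSPA8 and -0.74 for HSPB1. Bone marrow replicate 4 was at 0.85, 0.72, 0.92, 0.29 and 0.64 for the same genes. DNAJB1 went the other way there, at -0.97 in bone marrow replicate 4 and at 0.65 and 0.74 in replicates 2 and 3. In lung, replicate 1 was the highest library for 6 of the 10 genes and for 24.1% of the 2619 genes. Lung replicate 3 was the lowest for 5 of the 10 and for 25.4% of the 2619. DNAJB1 and BAG3 shared both lung extremes, at 0.80 and 1.40 in replicate 2 and at -1.24 and -2.09 in replicate 3. HSP90AA1 and HSP90AB1 thus ranked the 4 bone marrow libraries in the same order, while their ratio stayed within 1.25 to 1.64.

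**Figure D5:**
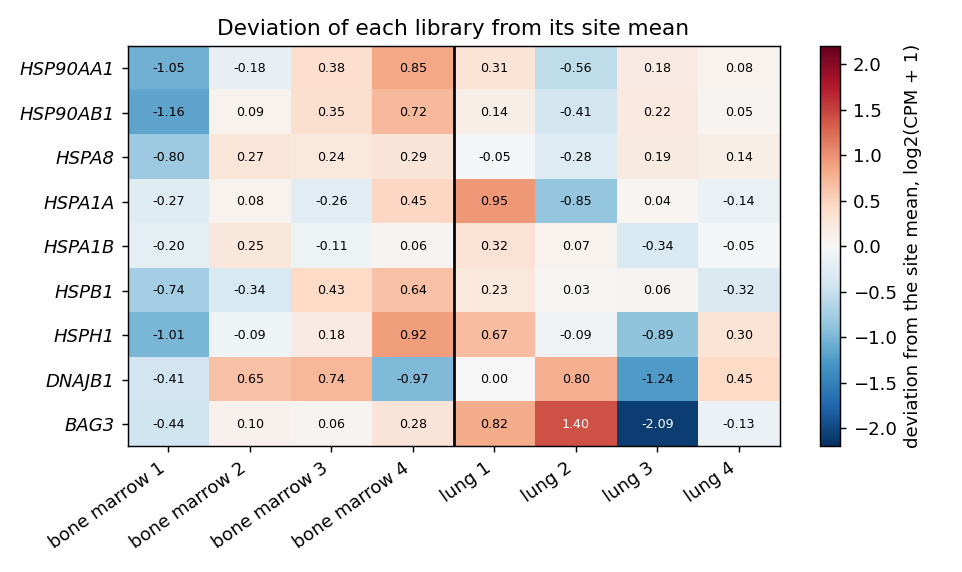
Deviation of each metastasis library from the mean of its site in log2(CPM + 1), for 9 of the genes; HSF1, with libraries at 0, is left out. Bone marrow replicate 1 is negative for all 9 shown, and replicate 4 is positive for 8 of them and at -0.97 for DNAJB1.

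The primary tumour library was next set against the metastases, a comparison with 1 library on one side, whose test assumes that this library varies as the others do and has no replicate check. In edgeR 0 of the 10 genes passed, where 0% of all genes did, and 0 of the 10 had an unadjusted p below 0.05, where 4.79% of all genes did. DESeq2 called 0 of the 10 and 0.730% of its genes, limma voom 0 of the 10 and 0.281%. The primary library lay beyond all 8 metastasis libraries for HSPH1 alone, 1 of the 10, against 17.6% of all genes, 10.1% lying above. Positive values mean higher in metastases, and the median of all genes was 0.17. HSPH1 gave -0.96 ± 0.62 (SE), DNAJB1 1.05 ± 0.82, HSPA8 0.43 ± 0.39, HSP90AB1 -0.38 ± 0.50 and HSP90AA1 -0.30 ± 0.54. The 10 genes were split, with 4 higher and 6 lower in metastases. HSPA8, at 1164 CPM, lay below 7 of 8 metastasis libraries and DNAJB1, at 109.9 CPM, below 6 of 8.

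Other chaperone genes give the setting of these values, beside a median of 0 over all tested genes. None of their lists had a member past the edgeR or limma voom test between sites. Of 8 tested relatives of HSP70, 6 were higher in bone marrow (median 0.65). The sites did not overlap for 1 of them, HSPA13, at 158 to 320.2 CPM in bone marrow and 8.36 to 135 CPM in lung (edgeR adjusted p 0.486). The member with the smallest p was HSPA6, an HSP70 that is nearly silent without stress, at 1.44, 7.03, 0 and 0 CPM in lung, at 0.074 CPM or less in bone marrow, where 2 libraries held 0, and at 6.06 CPM in the primary library (log2 fold change -5.64, edgeR adjusted p 0.464). Of 8 other genes listed as heat shock factors or their binding protein 3 were tested and 0 were higher in bone marrow, and HSF2 was at 48.6 ± 10.1 CPM there and 68.8 ± 30 CPM in lung (edgeR adjusted p 0.673). Of 4 tested other small heat shock proteins 3 were higher, with CRYAB at 0.779 ± 0.497 CPM (bone marrow) and 3.89 ± 5.27 CPM (lung) (edgeR adjusted p 0.486).

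HSP40 proteins and other HSP70 co-chaperones were higher in bone marrow for 4 of 16 (median -0.37, with 1 at an unadjusted edgeR p below 0.05 and 0 called by DESeq2). HSPBP1, a nucleotide exchange factor of HSP70, was at 29.8 ± 9.16 CPM (bone marrow) and 54.4 ± 7.38 CPM (lung), edgeR adjusted p 0.475. It was 1 of 3 of the 16 whose lung values all lay above those of bone marrow, as for 3.06% of all genes, the others being DNAJA4 (12.3 ± 9.22 against 30.7 ± 6.17 CPM in lung) and STUB1 (22.6 ± 12.7 against 47.1 ± 8.24 CPM in lung). HSP90 co-chaperones were higher for 9 of 14 (median 0.12), and 3 of the 14, UNC45A, STIP1 and FKBP5, had an unadjusted edgeR p below 0.05, all higher in bone marrow, where 10.2% of all genes did in either direction. DESeq2, which called 3.37% of all genes, called 1 of the 14, UNC45A, a myosin chaperone (adjusted p 0.00033), at 6.14 ± 5.64 CPM in bone marrow against 0.141 CPM in lung replicate 2 and 0 in the other lung libraries and in the primary library. Subunits of the cytosolic chaperonin TRiC and of prefoldin were higher for 8 of 14 (median 0.06), with 1 at an unadjusted edgeR p below 0.05, and DESeq2 called that 1, PFDN2 (adjusted p 0.0183), at 185 ± 39.7 CPM (bone marrow) and 331 ± 29.1 CPM (lung). The low values of UNC45A and HSPA6 leave their fold changes poorly determined.

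HSP70 and HSP90 also have forms in other compartments, whose values are set beside the cytosolic ones; the difference between compartments was not tested. Mitochondrial chaperones were higher in bone marrow for 5 of 7 (median 0.17), with 1 at an unadjusted edgeR p below 0.05, and DESeq2 called that 1, the mitochondrial HSP90 TRAP1 (adjusted p 0.0157), at 102, 158, 176 and 171 CPM in bone marrow replicates 1 to 4 and 46.4, 95.2, 62.8 and 40.6 CPM in lung replicates 1 to 4. In the endoplasmic reticulum, HSPA5 was at 2112 ± 202 CPM in bone marrow, 1021 ± 275 CPM in lung, the primary library reading 4659 CPM, and HSP90B1 at 402 ± 117, 222 ± 30.4 and 834 CPM. Bone marrow replicate 1, low for most cytosolic members, held 2294 CPM of HSPA5, the highest of the bone marrow libraries. Between sites neither passed in edgeR (adjusted p 0.298 and 0.381), and DESeq2 called HSPA5 (adjusted p 0.00558). For both genes the primary library, a single one, lay above all 8 metastasis libraries, as for 10.1% of all genes. The edgeR log2 fold change, metastases minus primary, was -1.67 ± 0.262 (SE) for HSPA5 and -1.48 ± 0.321 for HSP90B1.

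Genes that rise within minutes of stimulation or tissue handling were given beside the inducible members. Of 12, 9 were lower in bone marrow (median -0.97), and their summed levels overlapped, at 615 to 2208 CPM in bone marrow and 726 to 1614 CPM in lung. Of the 12, 2 had an unadjusted edgeR p below 0.05, and they ran in opposite directions. ATF3 was lower in bone marrow, at 27.1 ± 15.2 CPM there against 95.4 ± 32.9 CPM (edgeR adjusted p 0.356, DESeq2 adjusted p 0.0156). FOS was higher in bone marrow, at 437 ± 129.7 CPM there against 182 ± 94.7 CPM (edgeR adjusted p 0.399, DESeq2 adjusted p 0.0681), and the other genes with higher values there were EGR1 and DUSP1. Of 4 measured nuclear RNAs, 0 were higher in bone marrow (median -0.39). The cells of the sites were recovered from different tissues, so handling and site cannot be told apart.

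The genes whose level across the 9 libraries was most like that of HSPA1A plus HSPA1B were ranked among 4347 others averaging 5 or more in log2 CPM, by Pearson's r of log2(CPM + 1), as a description. The first 5 were GGCX (0.891), PIN4 (0.859), KLF6 (0.854), EIF5 (0.851) and TRMT12 (0.851), with Spearman's rho between 0.733 and 0.933. KLF6, a transcription factor, was at 109.7 ± 6.10 CPM in bone marrow, 216 ± 38.6 CPM in lung, the primary library reading 199 CPM. TRMT12 was at 26.7 ± 11.2, 77.8 ± 50.8 and 71.3 CPM.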

How the data were processed

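The 9 libraries were prepared from total RNA by template switching with a kit for low RNA input, per the labels' protocols. The authors deposited estimated counts per gene symbol, not scaled to depth. Per the submitters' processing notes, Trim Galore and Salmon were used with hg38; versions and strand setting are not given. A deposited quality table holds the percent of reads assigned to each species and the fraction of reads per annotation class. The 12 vector rows, with 0.0133% or less of each library's counts, were left out.

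Counts were rounded, filtered with filterByExpr (17073 genes kept) and TMM-scaled to CPM. A single edgeR 4.0.16 quasi-likelihood fit held the 3 groups, with p-values adjusted by Benjamini-Hochberg over all genes and called below 0.05. The SE is the log2 fold change over the square root of F. DESeq2 1.42.0 and limma 3.58.1 voom were alternatives. Ratios of forms were tested by exact permutation of the 8 metastasis libraries. The edgeR fit was also tested on data simulated from these libraries. No pair of libraries was alike within counting noise.

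The members and gene lists were chosen with earlier results of these data known. Named are all 10 members, the gene with the smallest p in each chaperone or early-response list, HSPA5 and HSP90B1. The 5 genes of most similar level are also named. CD68, LYZ, MPO, SFTPC, FOS, EGR1, DUSP1, STIP1, FKBP5, HSPA13, DNAJA4 and STUB1 were chosen after their values were seen. Summed markers of red cells lay at 15.9 to 109.9 CPM in bone marrow and 0.436 to 170.3 CPM in lung, and those of lung epithelium at 21.3 to 87.6 and 14.8 to 128 CPM.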

Additional observations from a re-analysis of the deposited data

Results flagged for a closer look

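In 28 groups of 4 libraries tested with Dixon's criterion, 2 values stood apart from the other libraries of their site, where chance flags about 1 in 20. HSPA8 in bone marrow replicate 1 was at 767 CPM, against 1576 to 1633 CPM in the other bone marrow libraries (gap over range 0.934). The summed level of HSPA1A and HSPA1B in lung replicate 1 was 210.3 CPM, against 111 to 126 CPM in the other lung libraries (0.846).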

How the results depend on the processing

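Of the values of single genes under the alternatives, 315 kept their sign and side of the threshold, 16 changed sign and 1, HSPA1B, became a call, in DESeq2. Sign changes, outside single libraries left out, were HSPB1 between sites at -0.0379 with library size alone, -0.0679 with at least 5 CPM in at least 4 libraries and -0.0802 with the replicate block, BAG3 between sites at 0.12 in limma voom and 0.10 with the replicate block, and HSPA1B against the primary library at -0.0755 with library size alone and -0.00143 with the 5 CPM filter. With single libraries left out, log2 fold changes that changed sign ran between sites from -0.21 to 0.25 for HSPB1, -0.61 to 0.0592 for HSPA1A, -0.0221 to 0.632 for HSPH1 and -0.91 to 0.10 for BAG3, and against the primary library from -0.0971 to 0.0305 for HSPA1B, which was 0.0894 without bone marrow replicate 1 and lung replicate 3. The ratio of HSPA1 to HSPA8 ran from -0.541 to -0.137, and with HSPA1A alone it was 0.133.

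The HSP90 ratio kept its direction under every alternative run, from -1.0 to -0.868 with single libraries left out. Its p was 0.125 with the replicate block, the smallest that 4 pairs can give (difference -0.955), and 0.100 without bone marrow replicate 1 and lung replicate 3 (difference -1.01), the smallest that 3 against 3 allow; that alternative was chosen after seeing the data. With the pseudocount at 0.1 or 5 CPM its unadjusted p stayed at 0.0286.

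Between sites, all genes called were 1 in edgeR, 3 with the 5 CPM filter, 468 in DESeq2, 6 in limma voom, 0 with the replicate block, 0 to 0 with any single library left out and 0 without both libraries. Against the primary library they were 0 in edgeR, 97 in DESeq2 and 48 in limma voom. Of the 10 members DESeq2 called 1 between sites. The cause of these differences was not tested. Same-numbered libraries did not deviate together (correlations -0.067 to 0.035). Such values cannot tell whether same-numbered libraries share a mouse, since a mouse effect may be small, so pairing remains unknown. Of the 10 members, BAG3 and HSF1 had the lowest estimated counts, at 3 to 185 and 0 to 136. The part of sequencing depth in their spread was not tested.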
